A study of Mus musculus with 17 samples.

Results

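Mitochondrial ribosomal protein genes were taken as the protein-coding genes whose symbol is Mrpl or Mrps followed by a digit. The rule found 78 of the 56748 genes in the count table, 49 named for the large subunit (Mrpl) and 29 for the small subunit (Mrps). All were measured by poly(A) RNA-seq of whole heart tissue from 8 control (Ctrl) mice and 9 hMut mice, all 12 to 16 months old. hMut mice were Polg iMut/iMut; +/Ckmm-cre, and the label Ctrl gives no further genotype. In the iMut allele a loxP-flanked wild-type Polg cassette is expressed until cre removes it, after which the mouse makes a mitochondrial DNA polymerase that lacks proofreading. Ckmm-cre is driven by the muscle creatine kinase promoter, so recombination is expected in cardiomyocytes and skeletal muscle and not in the other cells of the heart that a whole-tissue library also holds. Each library came from 1 heart and is named here by its group and number, such as hMut 6.

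Mitochondria carry their own ribosome, which translates the mRNAs that mitochondrial DNA (mtDNA) encodes, all of them for subunits of oxidative phosphorylation (OXPHOS). Its rRNAs, mt-Rnr1 and mt-Rnr2, are transcribed from mtDNA, whereas every one of its proteins is encoded in the nucleus, made in the cytosol and imported. Some of these proteins descend from bacterial ribosomal proteins and others were added in the mitochondrial lineage. Beating heart muscle is dense in mitochondria, and human mutations in some of these genes, MRPL3 and MRPL44 among them, are known to cause cardiomyopathy. The comparison asks whether hearts whose mtDNA accumulated mutations held different amounts of the nuclear transcripts for this machine.

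Across the members the answer was close to level. None of the 77 members that could be tested differed between hMut and Ctrl hearts at an adjusted p under 0.05 (edgeR quasi-likelihood test, Benjamini-Hochberg adjustment over 16195 genes), against 4.62% of all genes tested, or 749 genes. The fitted log2 fold changes, hMut over Ctrl, ran from -0.22 for Mrpl18 to 0.17 for Mrps10, and their median was -0.049 in the large subunit and -0.044 in the small subunit, beside 0.0023 over all genes tested. With limma-voom and quality weights, which give less weight to libraries that depart from their group, the medians were -0.020 and 0.0055, with 16 of 29 small-subunit members above 0. In these members the hMut hearts were more spread out than the Ctrl hearts, and hMut 6 and hMut 9 held less of most members than any Ctrl heart did. Neither feature was compared with all genes.

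The promoter windows of a few members are printed first. They show the sequence around the RefSeq start of the members with the lowest and the highest fitted change. The most abundant member per length of each subunit is also shown. Mrps18b was added as a small-subunit member with an NRF1 match. The rule that defined the members did not use motifs, and of the printed windows only that of Mrps18b was chosen by motif. Each window holds 250 bases before the annotated start and 30 bases from it, taken from RefSeq (GRCm38.p6) and placed by exact match on GRCm39, the build of the count table; it reads 5′ to 3′ along the gene, in lower case, with matches to the 4 motifs searched in capitals. Mrpl18 (ENSMUSG00000057388), a large-subunit protein with a bacterial homologue, lies on the minus strand with its window at chr17:13134949-13135228. Mrpl12 (bL12m, the stalk protein that also binds the mitochondrial RNA polymerase) is on the plus strand at chr11:120375213-120375492. Mrps18b, on the minus strand at chr17:36227303-36227582, is 1 of the 3 mammalian relatives of bacterial S18. Mrps10, a small-subunit protein with a bacterial homologue, is on the plus strand at chr17:47679872-47680151. Mrps23, a small-subunit protein with none, is on the plus strand at chr11:88094964-88095243.
Mrpl18: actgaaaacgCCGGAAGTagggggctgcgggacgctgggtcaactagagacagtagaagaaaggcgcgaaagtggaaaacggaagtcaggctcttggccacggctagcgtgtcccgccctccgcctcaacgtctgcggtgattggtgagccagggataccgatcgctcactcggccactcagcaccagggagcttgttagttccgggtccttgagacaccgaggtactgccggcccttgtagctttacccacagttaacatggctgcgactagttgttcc
Mrpl12: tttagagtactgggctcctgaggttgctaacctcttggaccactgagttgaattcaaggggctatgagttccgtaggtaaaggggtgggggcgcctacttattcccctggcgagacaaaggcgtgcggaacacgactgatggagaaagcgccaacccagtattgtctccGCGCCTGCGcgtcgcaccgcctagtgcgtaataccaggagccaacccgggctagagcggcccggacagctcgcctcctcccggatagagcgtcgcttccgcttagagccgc
Mrps18b: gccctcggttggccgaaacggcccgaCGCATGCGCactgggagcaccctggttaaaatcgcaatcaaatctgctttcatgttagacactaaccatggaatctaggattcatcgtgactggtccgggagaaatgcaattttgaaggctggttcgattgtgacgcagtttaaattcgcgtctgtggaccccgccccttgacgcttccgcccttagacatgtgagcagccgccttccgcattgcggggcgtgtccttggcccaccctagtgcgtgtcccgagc
Mrps10: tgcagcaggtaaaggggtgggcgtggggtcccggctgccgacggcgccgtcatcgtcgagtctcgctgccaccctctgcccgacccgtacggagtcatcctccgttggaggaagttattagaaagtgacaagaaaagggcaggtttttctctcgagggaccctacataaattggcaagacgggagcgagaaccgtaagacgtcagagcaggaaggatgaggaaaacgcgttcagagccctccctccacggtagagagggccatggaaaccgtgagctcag
Mrps23: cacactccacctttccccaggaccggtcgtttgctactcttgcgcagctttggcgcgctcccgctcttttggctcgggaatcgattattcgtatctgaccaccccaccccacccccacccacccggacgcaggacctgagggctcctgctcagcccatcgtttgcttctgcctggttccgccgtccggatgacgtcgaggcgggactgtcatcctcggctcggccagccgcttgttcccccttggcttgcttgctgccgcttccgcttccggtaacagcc

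The capitals mark a GABP/ETS match in Mrpl18 at position -240, counted from the RefSeq start, and NRF1 matches in Mrpl12 at -81 and in Mrps18b at -224. The windows of Mrps10 and Mrps23 held no match. In the count table the gene span starts at 13135232 for Mrpl18 (minus strand) and at 47679812 for Mrps10 (plus strand). The windows of Mrpl18 and Mrps10 lie wholly inside those spans, so by that annotation they hold no upstream sequence. The Mrps18b span starts at 36227281 (minus strand), so its window lies wholly before that start. Ppp1r10, on the opposite strand, starts 45 bases from the Mrps18b start and inside this window. NRF1 (nuclear respiratory factor 1) and GABP (NRF2, an ETS-family factor) are known activators of nuclear genes for mitochondrial proteins. The letters searched on both strands were CGCANGCGC for NRF1, CCGGAAGT for GABP/ETS, AAGATGGCG for YY1 and CACGTG, the E-box that Myc and related factors bind, and matches of different motifs were counted whether or not they overlapped. RefSeq windows were found for 69 members, 43 large and 26 small.

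Some genes have more than 1 annotated start, so the 69 members had 75 windows, and a gene was counted where any of its windows held the letters. NRF1 letters were found for 26.1% of the members (18 of 69), beside 13.6% of 10835 tested protein-coding genes with a window. GABP/ETS letters were found for 17.4% beside 8.22%, YY1 letters in 5.8% beside 2.36%, and the E-box in 7.25% beside 11%. At least 1 of the 4 motifs was found for 49.3% of the members and for 30.4% of all these genes, while the median GC content was 58.2% and 60.4%. By subunit, 30.2% of large and 19.2% of small members held NRF1 letters. The fitted changes of members with a motif lay in the same range as those without it: the median log2 fold change was -0.066 for 18 members with NRF1 letters and -0.036 for 50 tested members without them, and -0.021 for 12 members with GABP/ETS letters and -0.056 for 56 without. Of the 2 extreme members printed above, the lower one held a match and the higher one held none.

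The libraries held 32915159 to 46486964 counts. Reads of mtDNA genes made up 23.5% to 30.9% of them in Ctrl hearts and 15.9% to 23% in hMut hearts, so levels are given as CPM, counts scaled to a common library size with factors from the trimmed mean of M values. Polg, the targeted gene, had 27.1 to 47.2 CPM in Ctrl hearts and 47.1 to 65.1 CPM in hMut hearts, with 8 of 9 hMut hearts above all Ctrl hearts (log2 fold change 0.74, edgeR adjusted p = 0.000448); gene counts do not tell its alleles apart. Defining markers of cardiomyocytes were present in every heart.

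Levels differed far more between members than between groups. Per length of the gene model, members spanned 17.8-fold in the large subunit, from 4.67 CPM per kilobase (kb) for Mrpl33 to 83.1 for Mrpl12, and 42.8-fold in the small subunit, from 2.53 for Mrps10 to 108 for Mrps23. These proteins stand in the ribosome in about equal numbers, except that Mrpl12 is present in several copies in the stalk. Mrpl12 had 84.9 ± 5.52 CPM per kb in Ctrl (SD, n = 8) and 81.4 ± 9.44 in hMut hearts (SD, n = 9). After Mrpl12 in the large subunit came Mrpl34 and Mrpl28, homologues of bacterial L34 and L28, at 61.7 and 60.3 CPM per kb over all hearts, a gap smaller than their spread within a group. At the low end were Mrpl32 and Mrpl33, both homologues of bacterial proteins, at 4.77 and 4.67 CPM per kb. Their gene models span 4982 and 7326 bases against a median of 2542 in the large subunit, and a long model lowers the level per kb where part of it is little used.

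Mrps23 stood apart in the small subunit, at 109 ± 9.49 CPM per kb in Ctrl (SD, n = 8) and 108 ± 9.50 in hMut hearts (SD, n = 9). Mrps21, the homologue of bacterial S21, followed at 71.1 and Mrps28 (bS1m) at 37.1 over all hearts. The lowest were Mrps25, a protein without bacterial homologue, at 4.38, Mrps30 at 3.27 and Mrps10 at 2.53. Their gene models span 6576, 6666 and 8079 bases against a median of 2172 in the small subunit, so the limit given above for long models applies. Mrps10 thus had both the lowest level per length in the small subunit and the highest fitted change. In CPM it was not the lowest: its Ctrl mean was 19.2 CPM, against 11.99 CPM for Mrps18b. Mrpl53 had 0 counts in all 17 libraries and was not tested. Its 900-base span (chr6:83086021-83086920, plus strand) lies wholly inside that of Gm42688, a protein-coding gene on the same strand, with which it shares all 900 bases, so the level of Mrpl53 cannot be read from these counts.

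**Figure D1:**
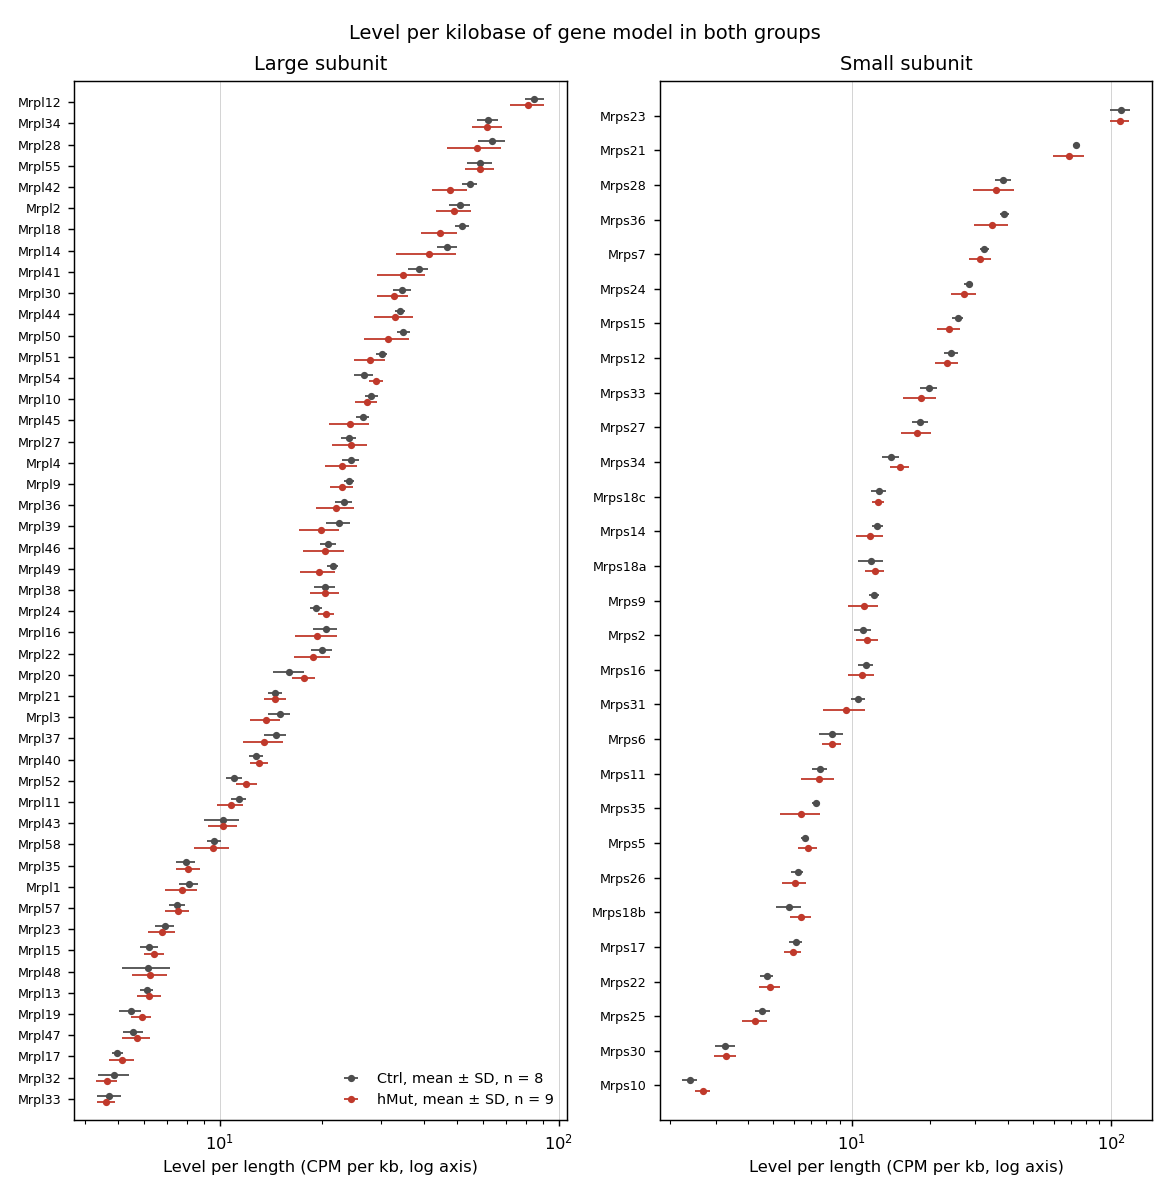
Level per kilobase of gene model (CPM per kb, log axis) of the 48 large-subunit and 29 small-subunit genes tested, ordered by their mean over all hearts; points are group means and bars the SD over 8 Ctrl (grey) and 9 hMut (red) hearts. The grey and red means of a gene lie close together beside the range from Mrpl33 to Mrpl12 (17.8-fold) and from Mrps10 to Mrps23 (42.8-fold).

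In the large subunit, 15 of 48 tested members had a fitted change above 0 and 33 below. At an unadjusted p under 0.05, 4 were higher in hMut hearts (Mrpl20, Mrpl24, Mrpl52 and Mrpl54) and 6 lower (Mrpl3, Mrpl18, Mrpl39, Mrpl42, Mrpl49 and Mrpl51); over all genes tested 14.5% were higher and 11.3% lower at that level. In the small subunit, 9 of 29 had a fitted change above 0 and 20 below, with Mrps10 and Mrps18b higher at an unadjusted p under 0.05 and no member lower. Over both subunits that made 6 of 77 members higher and 6 lower, shares under the background. No member separated the groups without overlap, against 0.605% of all genes tested.

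Mrpl18 had the lowest fitted change. Its level was 68.5, 71.9 and 78.6 CPM (lowest, median and highest) in Ctrl hearts and 46.1, 63.5 and 73.1 CPM in hMut hearts. All hMut hearts except hMut 2 lay below every Ctrl heart, and hMut 6 was the lowest. The log2 fold change was -0.22 ± 0.066 (SE), or -13.9% with a 95% interval of -21.8% to -5.12%, and the edgeR adjusted p was 0.0676. Mrpl18 shares 645 bases with Tcp1, a subunit of the cytosolic chaperonin, on the opposite strand; Tcp1 had a median of 5790 counts beside 2541 for Mrpl18 and a log2 fold change of 0.033 (edgeR adjusted p = 0.569). The strand setting of the counting is not given in the sources used here, so reads of the shared stretch cannot be assigned to either gene with certainty.

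Mrpl42, a protein added in the mitochondrial lineage and the most highly counted member, had 189, 198 and 215 CPM in Ctrl hearts and 138, 179 and 213 CPM in hMut hearts (lowest, median and highest). In 7 hMut hearts the level lay below every Ctrl heart, and in the other 2 within the Ctrl range. Its log2 fold change was -0.19 ± 0.065 (SE; edgeR adjusted p = 0.0917). Mrpl39, which resembles threonyl-tRNA synthetase, had 49.0, 56.1 and 63.7 CPM in Ctrl and 39.0, 51.9 and 60.1 CPM in hMut hearts, where 2 hearts lay below every Ctrl heart and the rest overlapped. Its log2 fold change was -0.18 ± 0.078 (SE; edgeR adjusted p = 0.165).

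Above 0, Mrpl54, Mrpl24 and Mrpl52 had the smallest p-values of the large subunit. Mrpl54, without bacterial homologue, had 20.3, 21.9 and 23.9 CPM in Ctrl hearts and 21.7, 24.4 and 25.01 CPM in hMut hearts. Of 9 hMut hearts, 7 lay above every Ctrl heart, and none below. The log2 fold change was 0.13 ± 0.046 (SE; edgeR adjusted p = 0.108). Mrpl24, the homologue of bacterial L24, had 41.6, 43.2 and 47.4 CPM in Ctrl and 42.3, 47.6 and 50.4 CPM in hMut hearts, with 5 hMut hearts above the Ctrl range. For Mrpl52, without bacterial homologue, the levels were 10.97, 12.4 and 12.9 CPM in Ctrl and 11.9, 12.9 and 14.7 CPM in hMut hearts, with 4 above the Ctrl range. The log2 fold changes of Mrpl24 and Mrpl52 were 0.10 ± 0.039 and 0.12 ± 0.051 (SE; edgeR adjusted p = 0.130 and 0.152).

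In the small subunit Mrps10 had the highest fitted change of all members. Its level was 17.2, 19.6 and 21.2 CPM in Ctrl hearts and 18.9, 21.6 and 23.5 CPM in hMut hearts (lowest, median and highest). In all, 6 hMut hearts lay above every Ctrl heart, hMut 6 and hMut 9 among them, and hMut 1 was the lowest of the 9. The log2 fold change was 0.17 ± 0.052 (SE), or 12.2%, and the edgeR adjusted p was 0.0707. Mrps18b (mS40) had 9.86, 12.2 and 13.4 CPM in Ctrl and 12.4, 12.8 and 16.3 CPM in hMut hearts, and only hMut 5 and 1 other heart lay above the Ctrl range (log2 fold change 0.15 ± 0.070 SE, edgeR adjusted p = 0.191). Mrps34, without bacterial homologue, had 25.3, 29.97 and 31.7 CPM in Ctrl and 27.6, 31.7 and 35.8 CPM in hMut hearts, 4 of them above the Ctrl range (log2 fold change 0.12 ± 0.057 SE, edgeR adjusted p = 0.194). All 2387 bases of Mrps34 lie within Mapk8ip3, a kinase scaffold gene on the opposite strand that had a median of 3292 counts beside 1146 for Mrps34.

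Below 0 the small-subunit members with the smallest p were Mrps35, Mrps36 and Mrps15. Mrps35, without bacterial homologue, had 60.3, 62.8 and 66.5 CPM in Ctrl hearts and 36.5, 58.7 and 65.7 CPM in hMut hearts. In all, 7 hMut hearts lay below every Ctrl heart, with hMut 6 at 36.5 CPM and hMut 9 at 42.8 CPM far under the others, and the SD was 9.64 CPM in hMut against 2.12 CPM in Ctrl hearts. The log2 fold change was -0.19 ± 0.091 (SE; edgeR adjusted p = 0.198). Mrps36 had 45.5, 49.5 and 52.9 CPM in Ctrl and 33.4, 44.8 and 54.8 CPM in hMut hearts (log2 fold change -0.15 ± 0.078 SE, edgeR adjusted p = 0.220). Despite its name, its product is a component of the 2-oxoglutarate dehydrogenase complex of the citric acid cycle. Mrps15, the homologue of bacterial S15, had 39.8, 44.2 and 45.4 CPM in Ctrl and 31.8, 40.8 and 44.6 CPM in hMut hearts (log2 fold change -0.11 ± 0.058 SE, edgeR adjusted p = 0.229).

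**Figure D2:**
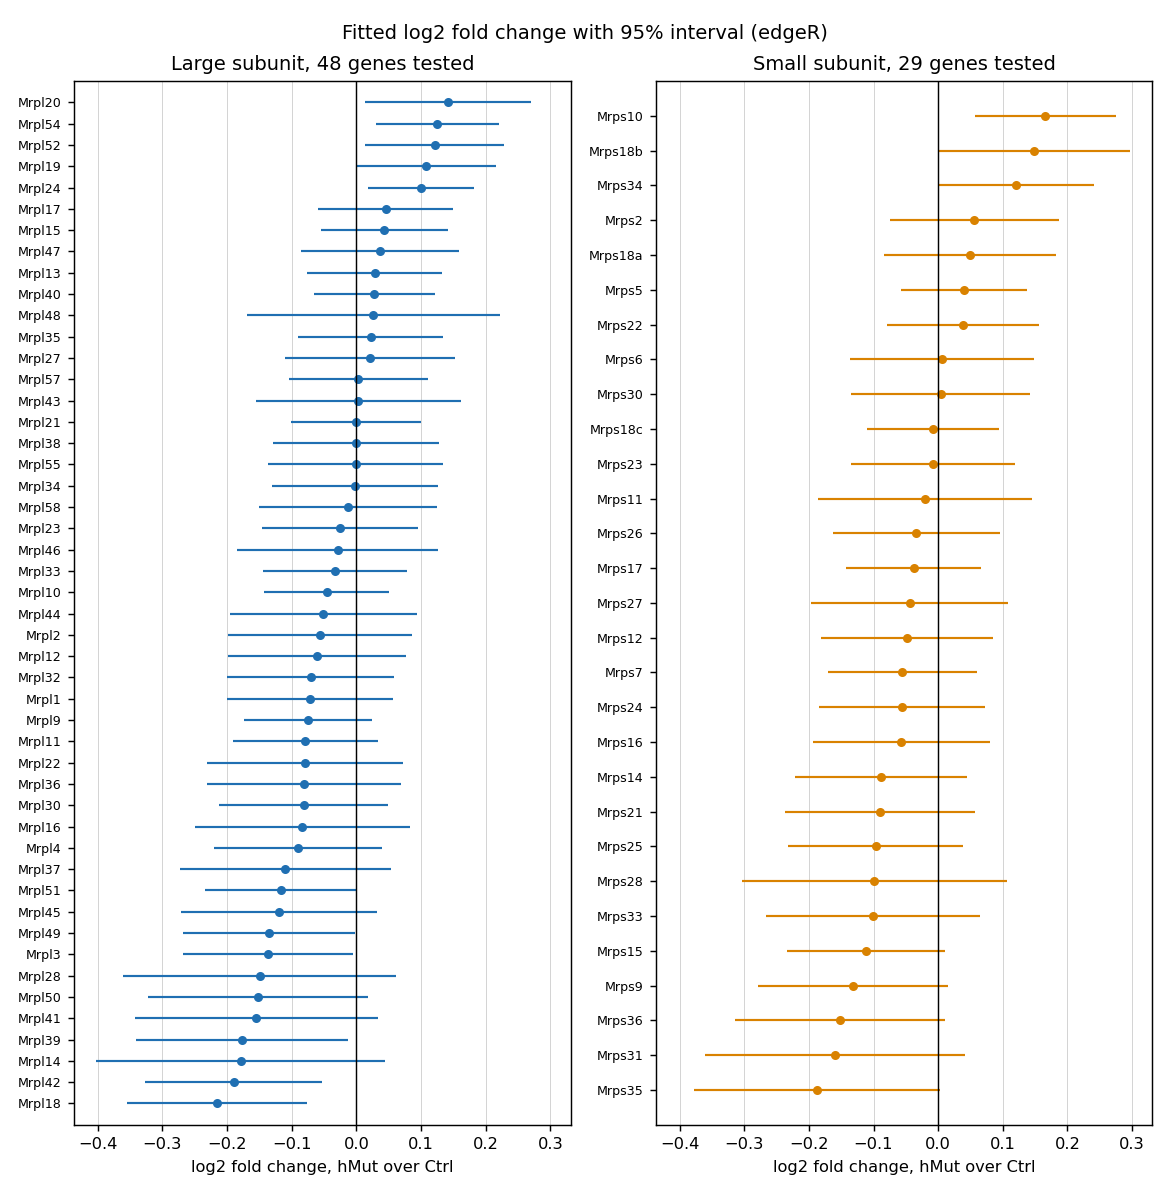
Fitted log2 fold change, hMut over Ctrl, of each tested member of the large (48 genes, blue) and small (29 genes, orange) subunit, with its 95% interval from the edgeR fit. Points lie between -0.22 (Mrpl18) and 0.17 (Mrps10), and the intervals of 12 of 77 members exclude 0.

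How large a change these data leave room for can be read from the intervals. The 95% interval lay within 0.2 of 0 on the log2 scale for 41 of 77 members, within 0.3 for 66 and within 0.4 for 76. The exception was Mrpl14, the homologue of bacterial L14, whose interval ran from -0.40 to 0.044. The standard error of the fitted change had a median of 0.063 on the log2 scale, beside 0.062 over the 7413 tested genes in the members' range of levels, of which 5.68% were called.

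Members set apart by their role lay on both sides of 0, and apart from Mrps18b their 95% intervals included 0. Mrpl44, which belongs to the RNase III family, had a log2 fold change of -0.051 (95% interval -0.20 to 0.093), and Mrpl58, a peptidyl-tRNA hydrolase that releases stalled chains, -0.013 (-0.15 to 0.12). For Mrpl12 the value was -0.061 (-0.20 to 0.077), for Mrps12, a protein of the decoding centre, -0.048 (-0.18 to 0.084), and for Mrps27, a pentatricopeptide repeat protein, -0.044 (-0.20 to 0.11). The 3 relatives of bacterial S18 take different places in the ribosome: Mrps18c (bS18m) had -0.0079 (-0.11 to 0.095), Mrps18b 0.15 (0.0011 to 0.30), and Mrps18a, which sits in the large subunit, 0.050 (-0.083 to 0.18). Mrps30, another protein of the large subunit in spite of its name, had 0.0039 (-0.13 to 0.14). Mrps36, the 2-oxoglutarate dehydrogenase component given above, was at -0.15.

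By origin, among large-subunit proteins with a bacterial homologue the median log2 fold change was -0.051 and 9 of 30 members were above 0, and among the 18 tested ones without it the median was -0.040 with 6 above 0. In the small subunit the medians were -0.052 over 16 members with a homologue, 4 of them above 0, and -0.039 over 10 without, 3 of them above 0. Mrps18b, given above as a relative of bacterial S18, was counted among the 10. Mrps18a, Mrps30 and Mrps36 were left out of this split because of their place. No class held a member that passed the test.

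Summed over its members, the large subunit had 2381, 2467 and 2626 CPM (lowest, median and highest) in Ctrl hearts and 1914, 2451 and 2654 CPM in hMut hearts. The small subunit had 1093, 1152 and 1225 CPM in Ctrl and 914, 1141 and 1246 CPM in hMut hearts. The medians of the groups were thus close, while the means were 2484 ± 89.9 and 2366 ± 222 CPM, and 1154 ± 40.0 and 1117 ± 101 CPM (SD, n = 8 and 9). In both subunits hMut 6 was lowest, followed by hMut 9 and hMut 8, all below every Ctrl heart, and hMut 2 lay above every Ctrl heart. The ratio of the large to the small sum was 2.12 to 2.202 in Ctrl and 2.09 to 2.16 in hMut hearts, and 5 hMut hearts lay below the Ctrl range. Members were summed by name, so the small sum includes Mrps18a, Mrps30 and Mrps36, whose products lie elsewhere. Together they had a mean of 115 CPM in Ctrl and 112 CPM in hMut hearts. These sums describe the hearts and were not tested.

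**Figure D3:**
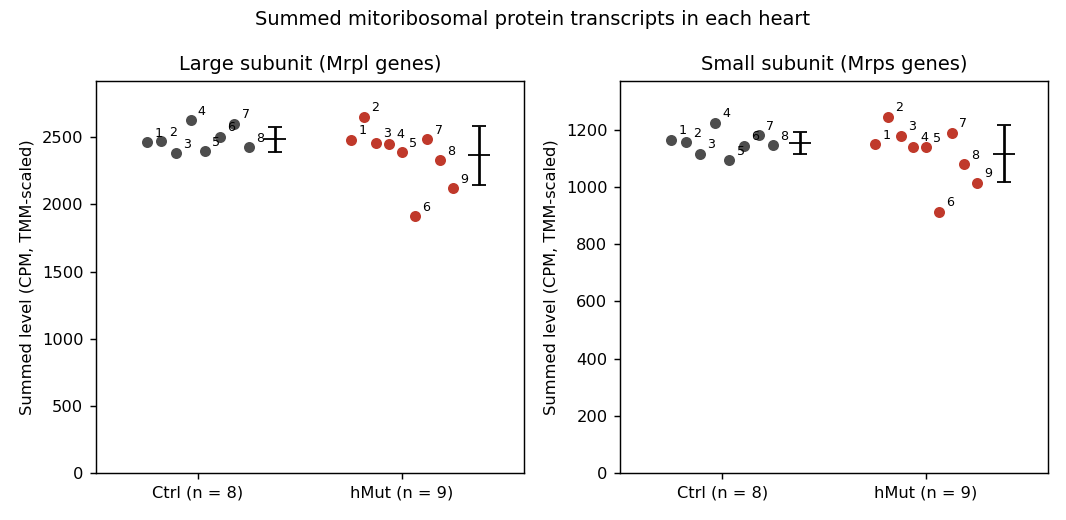
Summed level (CPM) of the large-subunit and small-subunit genes in each heart, numbered within its group, with mean and SD at the right of each group (8 Ctrl, 9 hMut). Of 9 hMut hearts, 7 lie near the Ctrl hearts, and hMut 6 (1914 and 914 CPM) and hMut 9 (2122 and 1015 CPM) lie below them.

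The spread came gene by gene as well. In hMut 6, 56 of 77 members were below every Ctrl heart, 34 of the large and 22 of the small subunit, and in hMut 9 there were 48 such members. In hMut 8 there were 26 and in hMut 5 there were 15, whereas in hMut 2 no member was below the Ctrl range and 22 were above it. The median log2 level relative to the Ctrl mean was -0.30 (large) and -0.37 (small) in hMut 6 and -0.21 and -0.16 in hMut 9, and it lay between -0.077 and 0.12 in the 7 other hMut hearts. Between Ctrl hearts the same median ran from -0.077 to 0.069. The SD between hearts was larger in hMut than in Ctrl for 66 of 77 members, 41 in the large and 25 in the small subunit. The coefficient of variation had a median of 6.49% in Ctrl and 10.3% in hMut hearts. In each group the members' values come from the same hearts, so these counts are not independent observations. The shares of all tested genes outside the Ctrl range in these hearts, or with a larger SD in hMut, were not computed. The counts therefore do not set the members apart from other genes.

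**Figure D4:**
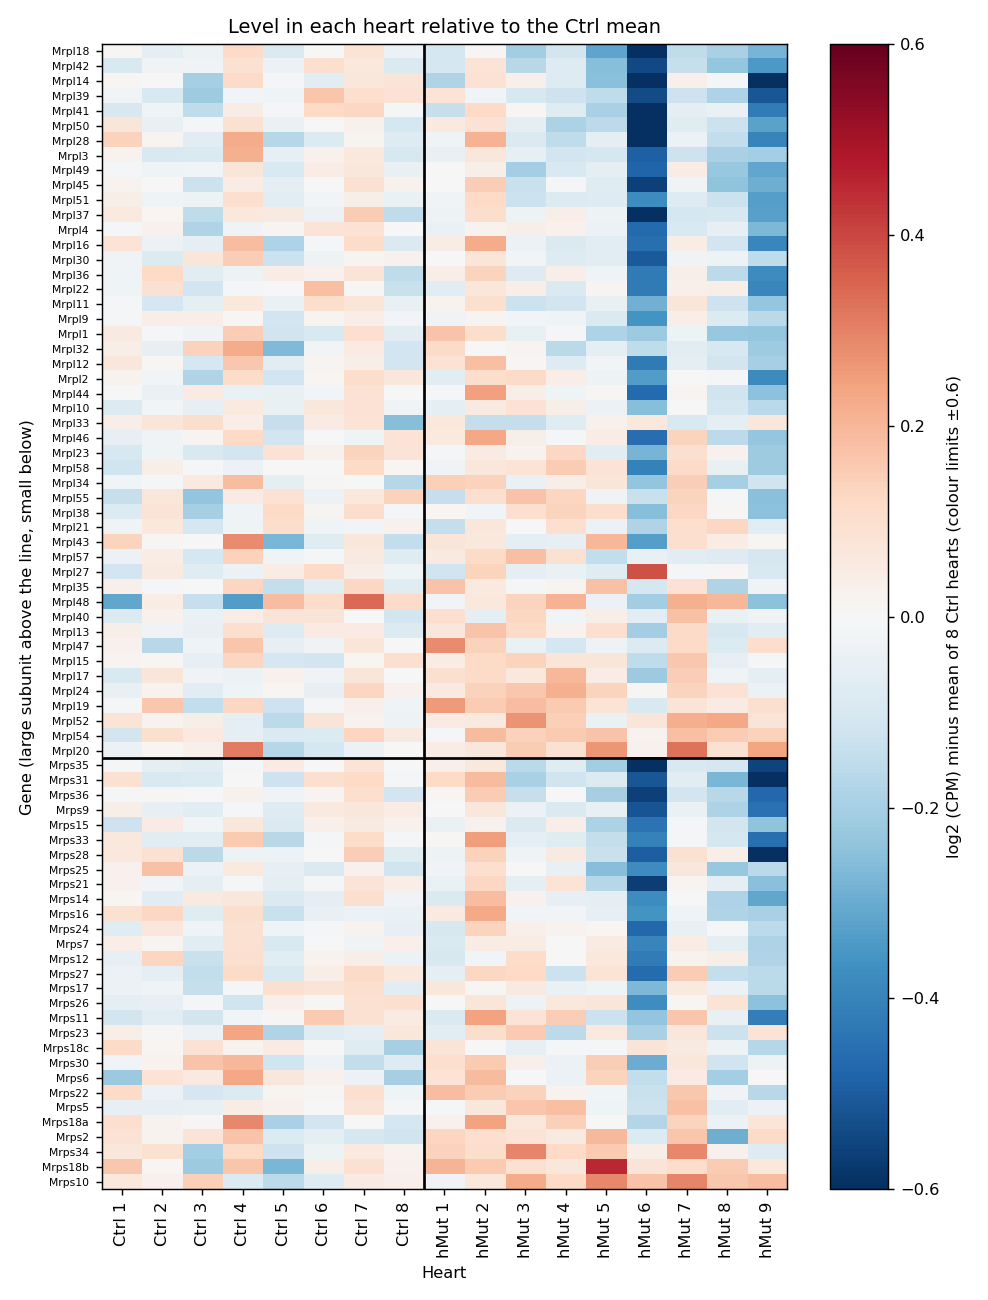
Level of each tested member (rows, ordered by fitted change within the large subunit above the line and the small subunit below it) in each of 17 hearts (columns), as log2 CPM minus the mean of the 8 Ctrl hearts; blue is lower and red higher, and colours stop at ±0.6. The columns of hMut 6 and hMut 9 are blue over most rows, and rows at the foot of each block, such as Mrpl54, Mrpl20 and Mrps10, are not blue in either column.

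Leaving these hearts out moved the centre of the members. Without hMut 6 the median log2 fold change was -0.023 in the large and -0.011 in the small subunit, without hMut 9 it was -0.030 in both, and without Ctrl 7 it was -0.029 in the small subunit. Without hMut 6 and hMut 9 together, an omission chosen after the values were seen, the medians were 0.0031 and 0.0098, 46 of 77 members were above 0, and no member was called (smallest edgeR adjusted p = 0.0657, for Mrpl24). Mrpl18 was still the lowest, at -0.15, and Mrps18b the highest, at 0.17.

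Marker transcripts of several cell types moved with these hearts. The summed level of 10 cardiomyocyte markers was 47850 to 57200 CPM in Ctrl and 36120 to 55870 CPM in hMut hearts, lowest in hMut 9 and next lowest, at 38840 CPM, in hMut 6. The 8 myeloid markers summed to 200 to 301 CPM in Ctrl hearts, to 1061 CPM in hMut 6, to 546 CPM in hMut 9 and to 254 to 342 CPM in the other hMut hearts. The 8 fibroblast markers summed to 902 to 1064 CPM in Ctrl hearts, 2063 CPM in hMut 6 and 1585 CPM in hMut 9. The list of 6 skeletal muscle genes reached 1209 and 1387 CPM in those 2 hearts against at most 363 CPM in Ctrl hearts, while Myh4, Myh1 and Myh2, which define skeletal fibres, were at most 0.341 CPM in every heart. The 6 atrial markers summed to 45.0 to 168 CPM in Ctrl hearts, 727 CPM in hMut 6 and 475 CPM in hMut 9, and 5 hMut hearts lay above every Ctrl heart. Most of this sum was Nppa, which reached 164 CPM in Ctrl and 685 CPM in hMut hearts. Dkk3 and Bmp10 were at most 25.2 CPM, Myl4 at most 2.34 CPM, and Myl7 and Sln at most 0.514 CPM in every heart. In hMut 6 the 8 lymphoid markers summed to 62.9 CPM against 2.32 to 41.5 CPM in Ctrl hearts, and the 6 smooth muscle and pericyte markers to 642 CPM against 745 to 984 CPM, while in hMut 9 both sums lay within the Ctrl range. The 7 endothelial markers lay above the Ctrl range in hMut 9 and within it in hMut 6, and the 6 erythroid markers lay within it in both. The part of these shifts in the members' levels was not tested, and fewer cardiomyocytes and less RNA per cardiomyocyte cannot be told apart in tissue RNA.

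The fitted change of a member went with its level. Across the 77 members, which share the same 17 libraries, the Spearman correlation of log2 fold change with mean CPM was -0.52 (-0.58 over 48 large-subunit and -0.48 over 29 small-subunit members), beside -0.048 over the 7413 tested genes in the same range of levels. The 39 most abundant members had a median log2 fold change of -0.082 and 7 of them were above 0, and the other 38 had a median of -0.0051 with 17 above 0. Without hMut 6 and hMut 9 the correlation was -0.47. With gene length it was 0.13.

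**Figure D5:**
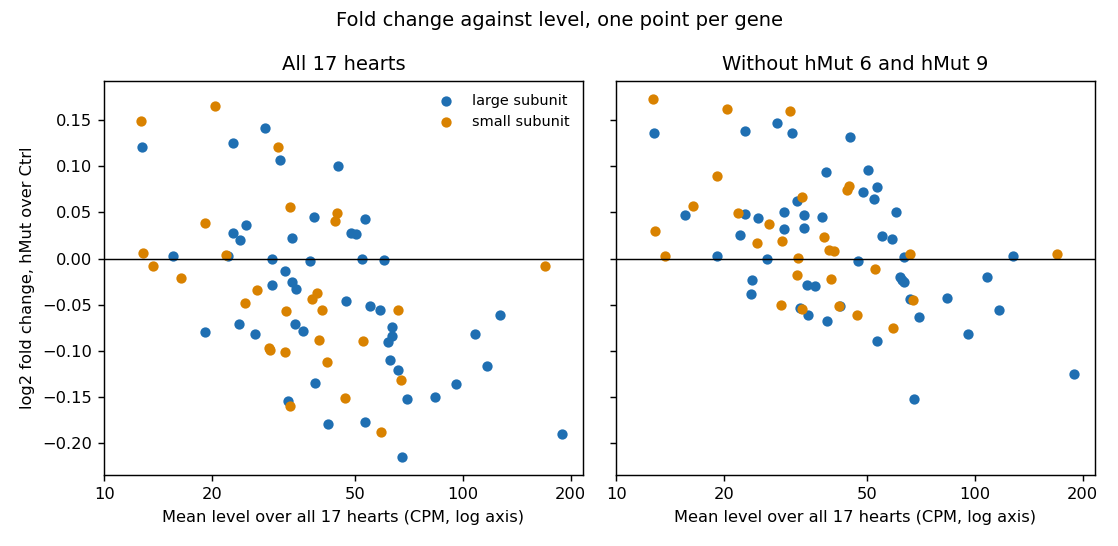
Log2 fold change, hMut over Ctrl, against mean level over all 17 hearts (CPM, log axis), 1 point per tested member, blue for the large and orange for the small subunit; the left panel uses all hearts and the right panel leaves out hMut 6 and hMut 9. In both panels the points slope down from left to right (Spearman -0.52 and -0.47), and in the right panel more points lie above 0.

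Most members varied together across hearts. The Spearman correlation over the 17 hearts between the log2 CPM of a member and the mean of all other members had a median of 0.61 in the large and 0.64 in the small subunit. It was highest for Mrpl16 (0.91) and Mrpl13 (0.85), homologues of bacterial L16 and L13, and for Mrps33 (0.83) and Mrpl12 (0.83). It was lowest for Mrps10 (-0.26), Mrpl33 (-0.18), Mrpl52 (-0.037) and Mrps18c (-0.0049). All members were measured in the same libraries, and hMut 6 and hMut 9 lie at one end of the shared pattern. In hMut 6 and hMut 9 Mrps10 had 21.6 and 21.8 CPM, both above the highest Ctrl heart.

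The 5 mitoribosomal proteins whose names the rule does not match all had fitted changes below 0. Dap3 (mS29), the GTP-binding protein of the small subunit, had a log2 fold change of -0.10 (95% interval -0.26 to 0.052), Ptcd3 (mS39) of -0.13 (-0.29 to 0.028), Chchd1 (mS37) of -0.085 (-0.20 to 0.028), Aurkaip1 (mS38) of -0.0065 (-0.14 to 0.12) and Gadd45gip1 (mL64) of -0.13 (-0.29 to 0.035). None of the 5 was called by the edgeR test, by DESeq2 or by limma-voom, and none had an unadjusted edgeR p under 0.05. Their median was -0.10, beside -0.046 over the 77 tested members, of which 24 were above 0. The rRNAs around which the proteins assemble are encoded in mtDNA and enter a poly(A) library through short tails, so their counts depend on those tails. mt-Rnr2, the large-subunit rRNA, had 4325, 5693 and 8486 CPM in Ctrl hearts and 3437, 3879 and 5461 CPM in hMut hearts, 8 of 9 below every Ctrl heart (log2 fold change -0.57 ± 0.12 SE, edgeR adjusted p = 0.0148). mt-Rnr1, the small-subunit rRNA, had 1099, 1288 and 2390 CPM in Ctrl and 682, 1095 and 1750 CPM in hMut hearts, with overlap (log2 fold change -0.37 ± 0.18 SE, edgeR adjusted p = 0.196).

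Around the ribosome, none of 30 tested assembly factors and none of 19 tested translation factors of mitochondria was called by the edgeR test. At an unadjusted p under 0.05, 2 assembly factors and 4 translation factors were lower and none of either list was higher. Over all genes tested 11.3% were lower and 14.5% higher at that level. The lower share was under this background for assembly factors and above it for translation factors. The median log2 fold change was -0.060 for assembly factors, with 22 of 30 below 0, and -0.11 for translation factors, with 18 of 19 below 0. Among assembly factors the smallest p belonged to Gtpbp10, a GTPase of large-subunit maturation, at -0.14 (edgeR adjusted p = 0.172), Ybey, an rRNA endonuclease, at -0.18 (0.192) and Trmt2b, an rRNA and tRNA methyltransferase, at -0.16 (0.195). Among translation factors it belonged to Gfm1, the elongation factor G of mitochondria, at -0.18 (edgeR adjusted p = 0.128), Taco1, the activator of COX1 translation, at -0.20 (0.133), and Lrpprc, which stabilizes mitochondrial mRNAs, at -0.21 (0.134). DESeq2 and limma-voom with quality weights called none of either list. Without hMut 2 the edgeR test called Gfm1, Taco1 and Lrpprc lower (adjusted p = 0.0410, 0.0487 and 0.0428). That omission also raised the calls over all genes from 749 to 1792.

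Of 14 transcription regulators of mitochondrial genes, Myc rose and Ppargc1a fell. Myc, a general activator of ribosome and mitochondrial genes, had 1.73, 3.38 and 4.88 CPM in Ctrl hearts and 3.49, 8.43 and 16.8 CPM in hMut hearts, 8 of 9 above every Ctrl heart (log2 fold change 1.52 ± 0.27 SE, edgeR adjusted p = 0.00359). Ppargc1a (PGC-1alpha), a coactivator of NRF1 and GABP, had 90.1, 94.6 and 109 CPM in Ctrl and 69.9, 76.2 and 95.2 CPM in hMut hearts, 8 of 9 below every Ctrl heart (log2 fold change -0.29 ± 0.058 SE, edgeR adjusted p = 0.00812). Scaled by library size only, which moved the median of all genes to 0.17, Ppargc1a was at -0.13 and no longer called (edgeR adjusted p = 0.0503). Pprc1, a relative of PGC-1alpha, was at 0.27 ± 0.086 (SE; edgeR adjusted p = 0.0702), and it passed the threshold with DESeq2 (adjusted p = 0.0338), with limma-voom (0.0351), and with edgeR without Ctrl 2 (0.0421) or without hMut 2 (0.0246). The E-box letters that Myc binds were in a window of 5 of 69 members, and the 5 had a median log2 fold change of -0.056 beside -0.048 for the 63 tested members without them.

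Set beside other translation and energy genes, the members lay between lists whose medians were on opposite sides of 0. Of 82 tested cytosolic ribosomal protein genes, 8 were called higher and none lower, with a median log2 fold change of 0.10 and 77 above 0. DESeq2 called 18 of them higher, limma-voom 12 higher and 1 lower, and edgeR 73 higher with library size only, 4 with sex as a covariate, and 3 with upper-quartile scaling, without a low-count filter or without hMut 6 and hMut 9. Without single hearts the number was 14 without hMut 1, 15 without hMut 2, 8 without Ctrl 3, 7 without hMut 8, 6 without hMut 3 and 2 to 5 without any of the others. The calls over all genes, in either direction, moved as well. They were 749 (4.62%) in the main fit, 1524 (10.2%) with DESeq2, 2081 (12.8%) with limma-voom and 5672 with library size only. With edgeR they were 562 with sex as a covariate, 652 with upper-quartile scaling and 463 without a low-count filter. Leaving out hMut 1 gave 1182, hMut 2 gave 1792, and hMut 6 and hMut 9 together gave 431. Of 80 tested nuclear OXPHOS subunit genes, 2 were called higher and none lower, with a median of -0.15 and 77 below 0. None was called lower by DESeq2, 3 were by limma-voom and 2 by edgeR without hMut 2. The median was -0.045 without hMut 6 and hMut 9, -0.097 without hMut 6 alone, -0.095 with limma-voom and 0.0089 with library size only. Of the 13 mRNAs encoded in mtDNA, which mitoribosomes translate, 9 were called lower and none higher, with a median of -0.65. These differences between lists were not tested.

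Neighbours on the chromosome bear on how the counts are read. Of the 78 members, 41 share ground with another gene, and 19 with one that had 10% or more of their own median count, among them Mrpl46 and Mrps11, which overlap each other by 413 bases on opposite strands (log2 fold changes -0.029 and -0.021). A further feature is that 32 members have a protein-coding neighbour that starts head to head within 1 kb. Mrpl46 and Mrps11 are each other's neighbour, which leaves 31 pairs. In 28 pairs both genes were tested, 13 had the same sign, and in 1 pair the neighbour was called: Wdfy1, beside Mrpl44, was higher (log2 fold change 0.31, edgeR adjusted p = 0.0137) while Mrpl44 was at -0.051. In addition, 6 processed pseudogene copies of members were in the table, with at most 59 counts in any library, against medians of 475 to 7027 counts for the tested members.

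Other tools called a few members. DESeq2 called Mrpl18 (log2 fold change -0.22, adjusted p = 0.0356) and Mrps10 (0.16, adjusted p = 0.0380), where 10.2% of all genes it adjusted were called. limma-voom with quality weights called 7 members, where 12.8% of all genes tested were called: Mrpl18 (adjusted p = 0.0109) and Mrpl42 lower, and Mrps10 (adjusted p = 0.0167), Mrpl20, Mrpl24, Mrpl54 and Mrps34 higher. Leaving out single hearts, the edgeR test called Mrpl20 without Ctrl 4, Mrps10 without hMut 1, and Mrpl18, Mrpl42 and Mrps10 without hMut 2, the heart with the highest sums, while the count over all genes was 1792 without hMut 2.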

How the data were processed

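Poly(A) RNA-seq libraries of 17 mouse hearts (8 Ctrl, 9 hMut; groups from the labels) were used. The deposited gene counts were made by the authors with fastp, HISAT2 2.2.1 and featureCounts 2.0.6 on GRCm39; the annotation release and strand setting are not given in the sources used here. Counts were fitted in edgeR 4.0.16 (R 4.3.3; TMM scaling, filterByExpr, quasi-likelihood test of genotype with no covariate), with Benjamini-Hochberg adjustment over 16195 genes and a threshold of 0.05. The study used DESeq2. DESeq2 1.42.0 and limma 3.58.1 (voom) were alternatives, with other scalings, filters, a sex term, a replicate block and omission of each library. Sex was not taken from the labels but read from the counts. A heart was taken as female where Xist exceeded the sum of Ddx3y, Eif2s3y, Kdm5d and Uty. The fit was tested on simulated data. Intervals are 95% intervals of the fit. Libraries held 32915159 to 46486964 counts. Replicate numbers were taken from the titles and did not pair hearts.

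Members and gene lists were chosen with earlier results of these data known. Named members were those with the 3 smallest unadjusted p in each subunit and direction, the 3 highest and 3 lowest per kilobase in each subunit, and those set apart by role. Other members named in the text were picked from their values. No amino acid sequences were used here.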

Additional observations from a re-analysis of the deposited data

Results flagged for a closer look

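In 96 checks, 1 for each named gene, summed level or ratio in each group, a heart was marked when its gap to the nearest other heart took an unusually large share of the group's range (Dixon's 95% critical value); chance marks about 1 in 20 such groups, and 4 were marked. Mrpl24 had 47.4 CPM in Ctrl 7, beside 44.1 CPM in the next highest Ctrl heart. Mrps18b had 16.3 CPM in hMut 5, beside 13.8 CPM in the next highest hMut heart. mt-Rnr2 had 5461 CPM in hMut 2, beside 4275 CPM in the next highest hMut heart. Ybey had 7.08 CPM in Ctrl 4, beside 5.93 CPM in the next highest Ctrl heart. The summed levels of hMut 6 and hMut 9 were not marked. The check uses only the gap to the nearest heart, so 2 low hearts can hide each other and it cannot decide whether they are unusual.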

How the results depend on the processing

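The number of genes called by edgeR was 749 of 16195 and depended on the setting: 1524 with DESeq2, 2081 with limma-voom, 5672 with library size only, 463 with no low-count filter, 195 with the replicate block, 431 without hMut 6 and hMut 9, and 395 to 1792 when single libraries were left out (395 to 497 without any 1 of Ctrl 1, 2, 5, 6, 7 and 8 and hMut 5, 6, 7 and 9, 1182 without hMut 1 and 1792 without hMut 2). Beside 0 and 0 large- and small-subunit genes, DESeq2 called 1 and 1, limma-voom 5 and 2, and library size only 18 and 10, all of the last higher; omission of single libraries gave 0 to 2 and 0 to 1. Library size only moved the median of all genes to 0.17 on the log2 scale, and the members' medians to 0.11 and 0.12, still below it. Without hMut 6 and hMut 9 these medians were 0.0031 and 0.0098. The block on replicate number moved no member past the threshold, but numbers did not pair the hearts (correlation of deviations above 0.1 in 1 of 8 pairs); under it 1 cytosolic ribosomal protein gene was called, and the adjusted p was 0.0637 for Myc, 0.0848 for mt-Rnr2 and 0.0535 for Ppargc1a.

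Several named genes changed sign in the log2 fold change; the cause was not tested. With library size only the values were Mrpl12 0.098, Mrpl28 0.0062, Mrpl32 0.095, Mrpl33 0.14, Mrpl34 0.16, Mrpl44 0.11, Mrpl58 0.15, Mrps12 0.11, Mrps15 0.049, Mrps18c 0.16, Mrps21 0.068, Mrps23 0.16, Mrps25 0.064, Mrps27 0.12, Mrps28 0.056, Mrps36 0.0046, Dap3 0.053, Ptcd3 0.027, Chchd1 0.078, Aurkaip1 0.15, Gadd45gip1 0.031, Gtpbp10 0.026 and Trmt2b 0.0020. Without hMut 6 and hMut 9 they were Mrpl12 0.0031, Mrpl34 0.045, Mrpl44 0.025, Mrpl58 0.062, Mrps12 0.016, Mrps18c 0.0028, Mrps23 0.0053, Mrps27 0.023, Mrps28 0.019 and Aurkaip1 0.046. With limma-voom they were Mrpl34 0.038, Mrpl58 0.044, Mrps12 0.0085, Mrps18c 0.0055, Mrps23 0.032, Mrps27 0.012 and Aurkaip1 0.026. With the replicate block they were Mrpl34 0.0080, Mrpl58 0.0035, Mrps18c 0.013 and Aurkaip1 0.0069. With sex as a covariate they were Mrpl34 0.0028 and Mrps30 -0.0052, with no low-count filter Mrpl34 5.6e-05, with upper-quartile scaling Mrps30 -0.011, and with nuclear protein-coding genes only Mrps30 -0.0022. Over the omissions of single libraries the values ran, for Mrpl34 from -0.028 to 0.025, for Mrpl58 from -0.035 to 0.030, for Mrps18c from -0.036 to 0.012, for Mrps23 from -0.034 to 0.027, for Mrps27 from -0.070 to 0.0012, for Mrps30 from -0.019 to 0.038, for Aurkaip1 from -0.032 to 0.021. Among the other named genes, Pprc1 passed with DESeq2 and limma-voom and without Ctrl 2 or hMut 2, and Gfm1, Taco1 and Lrpprc without hMut 2.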
